A study of Mus musculus with 12 samples.

Results

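The response of L929 cells to transfected HT-DNA was described across all expressed genes, from the 3 libraries of cells that received HT-DNA for 6 h and the 3 mock libraries. These are 6 of the 12 libraries of the study, chosen by their labels alone. L929 is an established mouse fibroblast line, labelled wild type here, and HT-DNA is the field's usual short form for herring testis DNA, delivered with Lipofectamine 2000. The other 6 libraries also received HT-DNA, together with AOA or with AOA and Asp, and entered only the shared estimate of spread. No label tells whether the reagent was also given to mock cells, so HT-DNA and reagent cannot be told apart. Nor do they say whether replicates came from separate cultures, and p-values here measure only the spread between these libraries. Of 56287 entries in the table, 14694 genes had enough counts to be tested. RNA was measured in bulk, so fewer cells with a transcript and less of it per cell cannot be told apart.

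Double-stranded DNA in the cytosol is sensed by cGAS, whose product activates STING and, through it, the transcription of interferons and of genes that interferons switch on. Making ribosomes draws on RNA polymerase I, a large set of nucleolar assembly factors and the small nucleolar RNA particles that modify ribosomal RNA, and it is known to follow growth signals. Lysosomes degrade cargo with acid hydrolases behind a proton pump, and many of their genes carry a shared promoter motif read by the factors TFEB, TFE3 and MITF.

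The HT-DNA libraries held 19944571 to 26404043 estimated counts and the mock libraries 21484229 to 25102309. In a principal component analysis of the 6 libraries, the leading component, with 50.2% of the variance, placed HT-DNA at -27.6 to -26.1 and mock at 25.7 to 27.8. On the next component, with 16% of the variance, HT-DNA replicate 3 and mock replicate 3 lay apart from their groups, at -25.3 and 16.3. Without both of these libraries, 3163 genes were higher and 2783 lower, beside 3112 and 2911 with all 6. Of 18 fibroblast markers 14 passed the filter, of which 2 rose and 7 fell (50%, beside 19.8% of all genes), with the receptors Pdgfrb at -0.80 and Pdgfra at -0.64. Their summed level was 6384 to 7020.3 CPM in HT-DNA libraries and 6303 to 6473 CPM in mock libraries, of which Vim, at 3413 to 3779 CPM in HT-DNA and 2830.5 to 2854 CPM in mock libraries, held the largest part and rose by more than the whole sum did. The fibroblast markers Dcn, Lum, Thy1 and Fap had at most 9 counts per group, a limit on how far L929 stands for a primary fibroblast. Of 12 macrophage and leukocyte markers 3 were tested, Ptprc, Adgre1 and Itgam had 0 or 1 count in either group, and nearly all of the list's summed level (246 to 253 CPM in HT-DNA libraries and 287 to 310 CPM in mock libraries) came from Cd68, a lysosomal protein. Of 8 epithelial markers 3 were tested and 0 were called, by edgeR at an unadjusted p under 0.05 or by DESeq2, and of 7 endothelial markers 2 were tested, with Vwf lower.

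By edgeR's quasi-likelihood test with Benjamini-Hochberg adjustment, 3112 genes (21.2%) were higher with HT-DNA and 2911 (19.8%) were lower, at an adjusted p under 0.05. Levels are given as CPM, counts scaled to a common library size with TMM factors, and changes as log2 fold changes of HT-DNA over mock. The standard error (SE) beside a change is approximate, its absolute size divided by the square root of the test's F value. Most named genes were picked by a rule that asked for a call and no overlap between groups, so neither is a further result. Over all genes tested, 25% had no overlap with HT-DNA higher and 24.5% with HT-DNA lower. Most of the calls were small changes. Of the genes that rose, 2435 (78.2%) had a log2 fold change under 0.5, and of those that fell, 1948 (66.9%) lay above -0.5. Changes of 2-fold or more were found for 171 genes that rose (1.16%) and 234 that fell (1.59%). The balance of directions depended on scaling: with library size alone, 2418 genes were higher and 3737 lower, and the median log2 fold change was all genes tested was -0.07 against -0.01 with TMM. With the gene of highest count, Def8, also left out of the library size, an alternative added after seeing the data, 2227 were higher and 4036 lower.

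Genes that rose 2-fold or more had a lower basal level than genes that rose less. To compare levels between genes, CPM were divided by transcript length in kilobases, giving RPKM. The 171 genes that rose 2-fold or more had a median of 0.947 RPKM in HT-DNA libraries and 0.264 RPKM in mock libraries. The 2941 genes that rose less had medians of 25.8 RPKM in HT-DNA and 20.7 RPKM in mock libraries. Of the 171 genes, 133 (77.8%) were under 1 RPKM in mock, beside 20.2% of all genes tested, but this share depends on the filter. Only 74 of the 171 reached the filter level of 0.445 CPM in every mock library, and the other 97 passed the filter through other libraries, so they are a selected set. Among the 74, 37 were under 1 RPKM in mock, beside 12.8% of all tested genes that met the same condition. The mock level is also the base of the fold change, so the bins were repeated on the mean over both groups. On that scale 16 of the 171 lay under 0.1 RPKM and 93 between 0.1 and 1 RPKM. These bins held 272 and 2738 of all genes tested, so that 5.88% and 3.4% of them rose 2-fold or more, beside 1.16% of all genes.

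Among genes at the filter level in every mock library, the share that rose by any amount was larger in each higher bin of mock level, and from 0.1 RPKM up to 100 RPKM the share that rose 2-fold or more was smaller. Only 24 such genes lay under 0.1 RPKM, and 1 of them rose, by less than 2-fold. Between 0.1 and 1 RPKM 6.34% rose and 2.19% rose 2-fold or more, and between 1 and 10 RPKM 14.9% and 0.6%. Between 10 and 100 RPKM 32.1% rose and 0.0872% rose 2-fold or more, and at 100 RPKM and over the shares were 40.6% and 0.138%. Over all genes tested, the bin under 0.1 RPKM held 300 genes, of which 16.7% rose, outside this order, and 24 of the 300 were at the filter level in every mock library. With no filter, 0.716% of that bin rose. The median SE of the log2 fold change was smaller at higher levels, at 0.293 between 0.1 and 1 RPKM and 0.0486 at 100 RPKM and over, so only larger changes could be called at low levels. Falls of any size were called most often between 1 and 100 RPKM, for 24.9% of genes from 1 to 10 RPKM and 23.5% from 10 to 100 RPKM. Falls of 2-fold or more were called for 4.15% of genes between 0.1 and 1 RPKM and 2.03% between 1 and 10 RPKM.

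**Figure D1:**
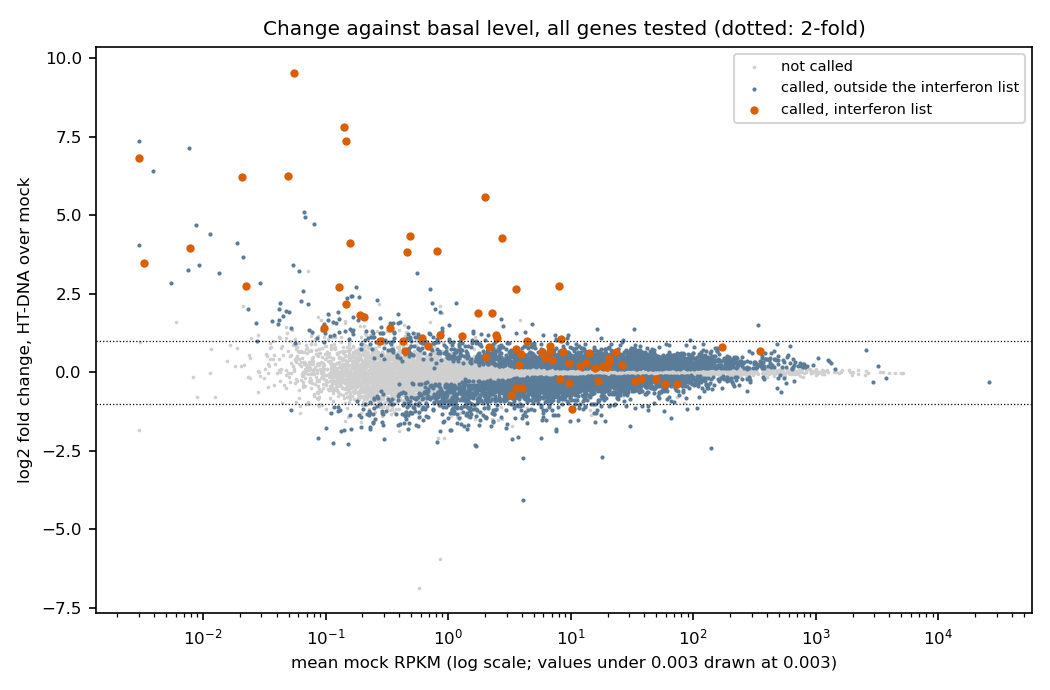
Each point is 1 of the 14694 genes tested, with its mean mock RPKM on a log axis and its fitted log2 fold change of HT-DNA over mock; coloured genes passed edgeR's test, and orange ones are on the interferon list. Of the rises past the dotted 2-fold line, 133 of 171 lie at mock levels under 1 RPKM, or 37 of the 74 that reached the filter level in every mock library, and fitted values of genes with under 3 counts in each mock library depend on the prior count of the fit.

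The interferon list gave the largest rises but not most of them. Of its 125 genes tested, 60 (48%) rose and 12 (9.6%) fell, beside 21.2% and 19.8% of all genes, and 53 were not called. The median log2 fold change was 0.21 against -0.01 for all genes tested, and 32 rose 2-fold or more, beside 1.16% of all genes. Cxcl10, a chemokine, had 36.8, 34.2 and 35.7 CPM in the HT-DNA libraries, against 0.177, 0.13 and 0.155 CPM in the mock libraries. Ifit1, which binds foreign RNA ends, had 60.8, 68.8 and 65.1 CPM in the HT-DNA libraries, against 0.266, 0.521 and 0.387 CPM in the mock libraries. The groups did not overlap for either gene, and all 3 mock libraries were close to the floor of 3 counts, 0.116 to 0.133 CPM, for Cxcl10. Neither gene reached the filter level of 0.445 CPM in every mock library, so both passed the filter through libraries with HT-DNA. Of the 171 genes that rose 2-fold or more, 137 were on neither the interferon nor the NF-kB list. Of these 137, 54 reached the filter level in every mock library, as did 19 of the 32 on the interferon list. The others passed the filter through other libraries. The lists were written by hand, so genes outside them can still respond to interferon. Of the 171, 22 had under 3 counts in every mock library, and with these set at the fold against that floor of 3 counts per library the median log2 change was 1.42, beside 1.49 as fitted. The promoter windows of Cxcl10 and Ifit1 are shown because they hold the interferon response element, read here as GAAA, any 2 bases and GAAA again, and searched on both strands. They are RefSeq sequence of build GRCm38.p6, the 250 bases before the transcript start, 5′ to 3′ on the gene's strand, with the motif in capitals. Cxcl10 lies at chr5:92348890-92349139 (minus strand) and Ifit1 at chr19:34640639-34640888 (plus strand), and the motif begins 213 bases before the start of Cxcl10 and 104 and 85 bases before that of Ifit1.
Cxcl10: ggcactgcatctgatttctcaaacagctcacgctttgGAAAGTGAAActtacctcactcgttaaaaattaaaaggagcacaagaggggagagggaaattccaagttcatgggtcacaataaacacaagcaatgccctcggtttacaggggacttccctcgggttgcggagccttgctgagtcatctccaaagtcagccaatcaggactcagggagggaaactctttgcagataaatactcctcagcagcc
Ifit1: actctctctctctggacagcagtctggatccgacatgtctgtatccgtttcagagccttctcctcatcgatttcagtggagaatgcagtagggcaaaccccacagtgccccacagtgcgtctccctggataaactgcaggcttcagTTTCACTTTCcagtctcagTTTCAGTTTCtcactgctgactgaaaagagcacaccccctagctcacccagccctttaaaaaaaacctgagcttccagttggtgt

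Among the 20 genes with a fitted rise of 16-fold or more, 10 were on the interferon list. Of the 20, 12 had under 3 counts in every mock library, and with these at their bound against 3 counts per library, 11 were past 16-fold and the median log2 change was 4.21, beside 5.35 as fitted. Those on neither list with a gene symbol were Hdc, Heatr9, Ccl4, Klk9 and Serpinb2, the last 4 named after their values were seen. Hdc, which makes histamine from histidine, had 4.75, 4.69 and 6.7 CPM in the HT-DNA libraries, against 0.0887, 0.13 and 0.271 CPM in the mock libraries, with no overlap (log2 fold change 4.95, standard error 0.28, adjusted p = 1.72e-11 by edgeR). Hdc had 381 counts in the HT-DNA group and 12 in mock. Each mock library was under the filter level of 0.445 CPM, so Hdc passed the filter only through libraries with HT-DNA. Its lack of overlap and its p-value are thus not independent of that selection. The rest rested on fewer counts. Heatr9 had 197 counts in the HT-DNA group and 1 in mock, Ccl4, a chemokine, 119 and 3, and Klk9, a kallikrein protease, 36 and 1. Serpinb2, a protease inhibitor, had 6 counts in the HT-DNA group, 0 of them in replicate 1, and 0 in mock. In RefSeq's GRCm38.p6 annotation, Heatr9 is the next protein-coding gene to Ccl5, a chemokine of the interferon list with 1789 counts in the HT-DNA group and 2 in mock, and Klk9 is next to Klk10, which also rose (1.70). Whether reads run from 1 gene of such a pair into the next was not tested.

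Outside the interferon and NF-kB lists, the largest rise at 5 CPM or more after that of Hdc was in Plat. Plat, the tissue plasminogen activator, had 11.6, 10.3 and 11.8 CPM in the HT-DNA libraries, against 2.48, 1.52 and 1.39 CPM in the mock libraries. Samd9l, a restraint on growth that is known to respond to interferon although the list did not hold it, had 15.7, 18.9 and 20.1 CPM in the HT-DNA libraries, against 4.04, 3.86 and 3.95 CPM in the mock libraries. In both genes every HT-DNA library lay above every mock library, with log2 fold changes of 2.65 (standard error 0.14) and 2.20 (standard error 0.1) and edgeR adjusted p of 5.55e-12 and 4.69e-13. Apln, which encodes the peptide ligand apelin, had 32.7, 31 and 32.6 CPM in the HT-DNA libraries, against 13, 14 and 12.7 CPM in the mock libraries. Its groups did not overlap, at 1.28 (standard error 0.083) with edgeR adjusted p = 1.10e-10. S100a7a, a calcium-binding protein, was at 2.21, Soga1 at 1.72, the kallikrein Klk10 at 1.70 and Hspb7, a small heat shock protein, at 1.5. Egr1, an immediate early transcription factor, and Dusp9, a phosphatase of MAP kinases, were both at 1.31. None of the rises named here, nor Hdc or Actg1, lost its call under any of the 15 alternatives run.

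Actg1, the cytoplasmic gamma-actin, lay far above the basal level of most large rises. It had 1764, 1781 and 1689.7 CPM in the HT-DNA libraries, against 621, 611 and 631 CPM in the mock libraries, and no library of either group came near the other (log2 fold change 1.49, standard error 0.041, adjusted p = 3.65e-17 by edgeR). Its level per length was 955 RPKM in HT-DNA libraries and 339.8 RPKM in mock, and it was the only gene at 100 RPKM or more in mock that rose 2-fold or more. Actb, the beta-actin, was singled out after its values were seen and had 8112, 8227 and 7857 CPM in the HT-DNA libraries, against 4969.5, 4895 and 4911 CPM in the mock libraries, at a log2 fold change of 0.71 (standard error 0.042) with edgeR adjusted p = 2.20e-11. The 3112 genes that rose gained 86182 CPM in all, a sum weighted toward abundant and long transcripts. Both actins have processed copies in the genome, between which estimated counts can move. Actb alone made up 3.64% of that gain, the ribosome biogenesis lists 6.71%, the RNA processing lists 5.62% and the interferon list 1.39%. The 2911 falling genes fell by 45323 CPM in all, of which Def8 made up 22.1%. Gain and loss are not a balance of RNA, since both sums depend on scaling. TMM factors were 1.03 to 1.049 in mock and 0.9962 to 1.003 in HT-DNA libraries. With them, mean CPM over all genes tested summed to 42255 more in HT-DNA than in mock libraries. Def8 took 3.8%, 3.83% and 4.35% of the counts in HT-DNA libraries, against 5.23%, 5.34% and 5.07% in mock libraries, so its own change bears on every level scaled by library size. Per length it stood at 20948 RPKM in HT-DNA and 26191 RPKM in mock libraries, beside 4201 and 2565 RPKM for Actb. Where these reads come from was not tested, so they may not measure Def8 mRNA alone.

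Genes of ribosome biogenesis rose almost throughout, each by a modest amount. Of 179 genes tested, 155 (86.6%) rose, beside 21.2% of all genes, 24 did not pass and 0 fell by edgeR's test. None was lower at an unadjusted p under 0.05, nor by DESeq2, while 4 genes (Polr1c, Exosc5, Zcchc7 and Pih1d1) were called lower under at least 1 alternative of scaling, filter or libraries. The median log2 fold change was 0.39, the largest 0.86, and 0 genes reached 2-fold, so none of these rises is in the class described above. The summed CPM of the lists was 135%, 138% and 137% of the mock mean in the HT-DNA libraries, against 102%, 99.9% and 98.2% in the mock libraries. The HT-DNA sums all lay above the mock sums. Without both libraries numbered 3 the count was again 155.

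RNA polymerase I transcribes the ribosomal RNA precursor, and 9 of 15 genes for its subunits and factors rose (median 0.27). Cd3eap, the mouse symbol for a subunit of the enzyme, had 44.2, 44.5 and 39.4 CPM in the HT-DNA libraries, against 28.1, 26.4 and 26.8 CPM in the mock libraries, with a log2 fold change of 0.66 (standard error 0.062) and edgeR adjusted p = 2.45e-08. Polr1e, another subunit, was at 0.61 and Rrn3, the initiation factor that growth signals act on, at 0.50. No library of the groups overlapped for these 3 genes. Polr1c, which RNA polymerase III shares, was at -0.14 and the factor Taf1b at -0.10, neither past the test.

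The small subunit processome, which folds and cuts the precursor around the U3 RNA, had 56 of 61 members higher (median 0.42). Rrp9, a protein of the U3 particle, had 192, 186 and 176 CPM in the HT-DNA libraries, against 96.6, 98.8 and 109 CPM in the mock libraries. The lowest HT-DNA library was well above the highest mock library, with a log2 fold change of 0.86 (standard error 0.054) and edgeR adjusted p = 5.40e-11. Wdr43, a component of the early particle, was at 0.74 and Bysl, which escorts the late particle, at 0.66. Of the factors of large subunit assembly, 61 of 66 rose (median 0.44), led by Zfp593, whose yeast counterpart travels with the particle out of the nucleus, at 0.79, Nifk at 0.70 and Ncl at 0.69. Ncl, the abundant nucleolar protein nucleolin, had 1924, 2096 and 2198 CPM in the HT-DNA libraries, against 1422, 1330.1 and 1099 CPM in the mock libraries. Mock replicate 3 was the lowest and HT-DNA replicate 3 the highest, and the groups did not overlap. Npm1, nucleophosmin, was also higher, with 1078, 1172 and 1190.2 CPM in the HT-DNA libraries, against 917, 909 and 819 CPM in the mock libraries (log2 fold change 0.38, standard error 0.05, adjusted p = 2.76e-06 by edgeR).

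Of 20 proteins of the small nucleolar RNA particles and their assembly, 18 rose (median 0.38). Nolc1, a chaperone of these particles, had 321, 334 and 342 CPM in the HT-DNA libraries, against 199, 194 and 182 CPM in the mock libraries. Dkc1, dyskerin, which turns uridine into pseudouridine, had 154, 161 and 161 CPM in the HT-DNA libraries, against 97.8, 92.1 and 86.7 CPM in the mock libraries. Both genes kept every HT-DNA library above every mock library, at log2 fold changes of 0.79 and 0.78, and Fbl, the fibrillarin methyltransferase, was at 0.37. The RNA exosome, which trims precursor ends, had 12 of 18 members higher (median 0.31), with the core subunit Exosc1 at 0.54 and the nuclease Exosc10 at 0.49. Cd3eap and Nop2, a methyltransferase of the large subunit RNA that was at 0.65, are shown by their promoter windows. These hold CACGTG, the E-box that MYC and related factors are known to read. It was in 16.9% of windows of ribosome biogenesis genes that rose, in 2 of 21 (9.52%) of those not called and in 9.93% for all genes tested. Over all genes, windows of those higher and those lower held it at near equal shares, 11.1% and 11.2%. Whether it bears on the rise was not tested. The windows run over the 250 bases before the start, at chr7:19359484-19359733 (minus strand) and chr6:125131633-125131882 (plus strand) (GRCm38.p6, RefSeq), with the motif in capitals, 218 and 60 bases before the start.
Cd3eap: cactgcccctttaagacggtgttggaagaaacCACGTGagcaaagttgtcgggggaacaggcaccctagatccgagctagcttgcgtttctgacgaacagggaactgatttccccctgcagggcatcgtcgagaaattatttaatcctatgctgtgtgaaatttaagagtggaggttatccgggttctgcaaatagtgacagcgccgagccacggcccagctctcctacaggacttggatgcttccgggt
Nop2: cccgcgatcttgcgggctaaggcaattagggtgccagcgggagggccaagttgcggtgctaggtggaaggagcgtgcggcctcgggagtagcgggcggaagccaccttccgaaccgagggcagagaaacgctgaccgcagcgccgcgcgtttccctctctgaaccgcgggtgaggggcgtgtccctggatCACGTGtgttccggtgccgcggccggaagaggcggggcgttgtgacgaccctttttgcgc

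**Figure D2:**
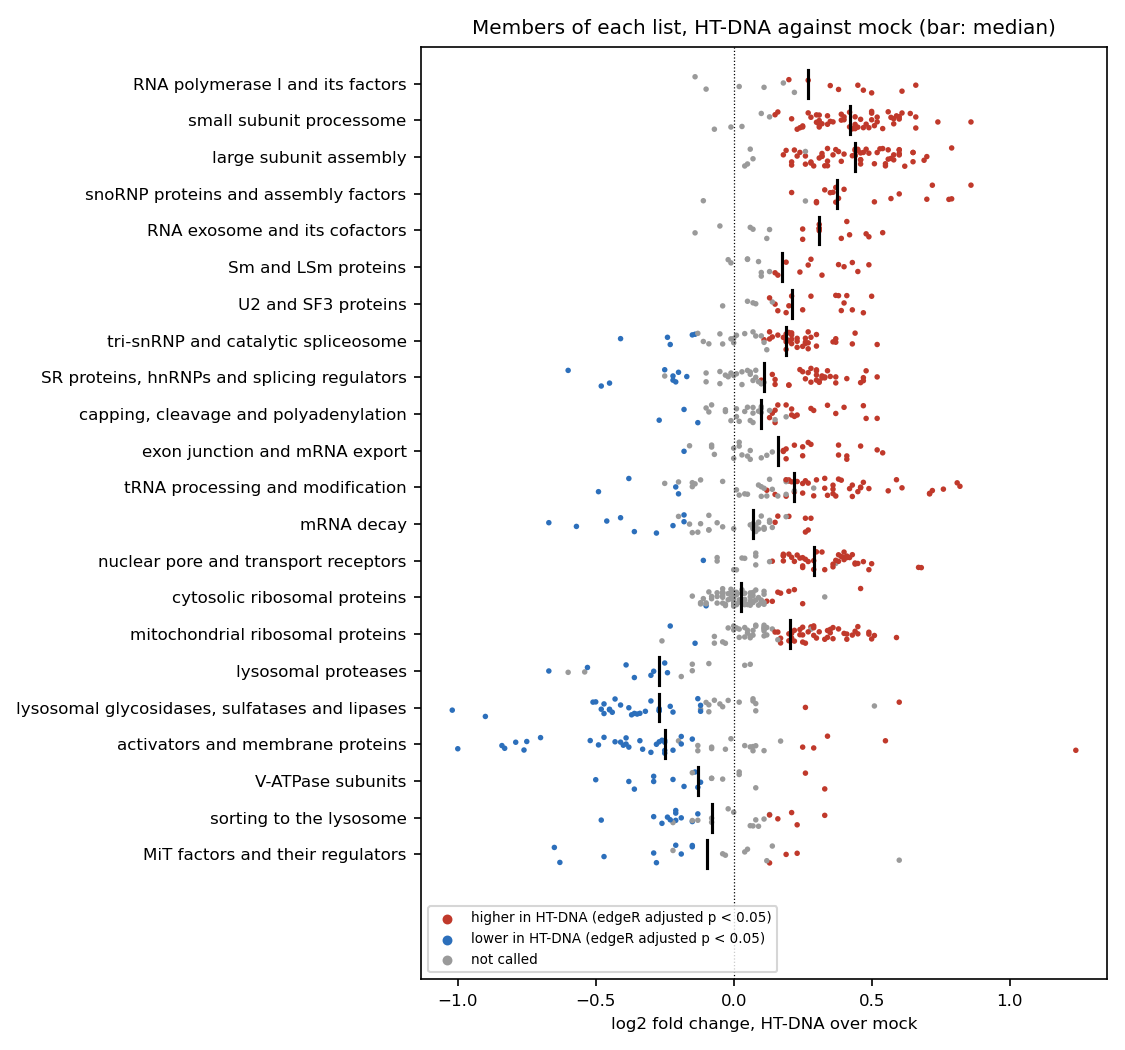
Each point is a gene of the named list, placed by its log2 fold change of HT-DNA over mock; red points rose and blue points fell by edgeR's test, grey points did not pass, and the bar is the median over the list's genes tested. Ribosome biogenesis lists have medians of 0.27 to 0.44, and the lysosomal enzyme and membrane lists -0.27 to -0.25.

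For the proteins of the cytosolic ribosome itself, the calls turned on the libraries numbered 3. Of 86 genes tested, 8 rose (9.30%, beside 21.2% of all genes), 1 fell and 77 were not called, at a median of 0.02. Without both libraries numbered 3, a choice made after seeing the data, 47 rose and 0 fell by edgeR's test, at a median of 0.13. Without HT-DNA replicate 3 alone 15 rose, without mock replicate 3 alone 17 rose, and without any other library of the groups 4 or 5 rose. With all libraries, the largest rise was Rpl7l1 at 0.46, a relative of a ribosomal protein that is itself known from ribosome assembly, then Rpl39l at 0.25 and Rpl5 at 0.20. Genes of this family have many processed copies, and the estimated counting can move reads between them. The summed level was 106%, 106% and 94.4% of the mock mean in the HT-DNA libraries, against 97.5%, 95.7% and 107% in the mock libraries. The groups overlapped here, with each library numbered 3 away from the others of its group. Mitochondrial ribosomal proteins had 44 of 78 members higher (56.4%, beside 21.2% of all genes) and 2 lower, with a median of 0.21. Without both libraries numbered 3, 51 were higher. The leading 3 were Mrpl17 at 0.59, Mrpl19 at 0.51 and Mrpl16 at 0.50.

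**Figure D3:**
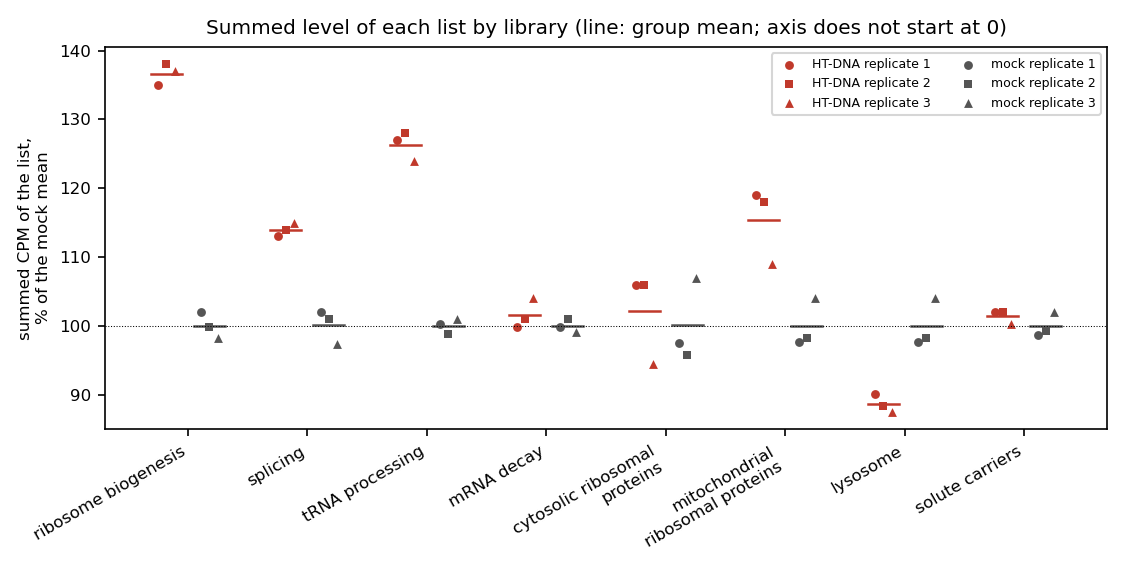
For each list, points give the summed CPM of a library as a percentage of the mock mean, HT-DNA libraries in red left of mock libraries in grey, with the marker shape for the replicate number and the line for the group mean; the axis does not start at 0. Ribosome biogenesis stood at 135% to 138% in HT-DNA, the lysosome at 87.5% to 90.1%, and the groups overlapped for cytosolic ribosomal proteins.

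Other machinery of the nucleus was higher as well. Its counts are read against the 21.2% of all genes that rose and the 19.8% that fell. Among nuclear pore proteins and transport receptors, 41 of 53 rose and 1 fell (median 0.29), led by Rcc1, which loads the transport switch Ran, at 0.68, then the exportin Xpo4 at 0.67 and the pore protein Nup35 at 0.50. Of 28 genes for RNA polymerases II and III and their factors, 15 rose and 4 fell (median 0.18). Polr2g, a stalk subunit of polymerase II, was at 0.84 and Polr3e, a subunit of polymerase III, at 0.66. Maf1, the repressor of polymerase III, went the other way, with 37.7, 37 and 32.8 CPM in the HT-DNA libraries, against 71.2, 69.8 and 84.6 CPM in the mock libraries. All HT-DNA libraries were under all mock libraries (log2 fold change -1.07, standard error 0.076, adjusted p = 1.67e-09 by edgeR). The other 3 falls, named after their values were seen, were Polr3gl, a polymerase III subunit, at -0.64, the polymerase III factor Brf1 at -0.31 and Polr2a, the largest subunit of polymerase II, at -0.22.

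RNA processing genes leaned the same way, with a smaller median and with falls among them. Of 348 tested, 178 (51.1%) rose and 31 (8.91%) fell, beside 21.2% and 19.8% of all genes. The other 139 were not called, the median was 0.15 and 0 genes reached 2-fold. Among all genes the share that rose was larger at higher mock levels, at 32.1% from 10 to 100 RPKM and 40.6% at 100 RPKM and over. With library size without Def8 as scaling, 115 rose, beside 2227 of all genes. Of the 348 genes, 160 act in splicing, of which 96 rose and 14 fell (median 0.19). The summed level of the splicing genes was 113%, 114% and 115% of the mock mean in the HT-DNA libraries, against 102%, 101% and 97.4% in the mock libraries. Of the Sm and LSm ring proteins, 12 of 20 rose (median 0.18), with Snrpd1 at 0.49, Lsm3 at 0.45 and Snrpb2, a U2 particle protein, at 0.43. The U2 and SF3 proteins, which mark the branch point, had 16 of 21 members higher (median 0.21). Sf3a2 had 174, 179.8 and 176 CPM in the HT-DNA libraries, against 125, 123 and 126 CPM in the mock libraries, a step of 0.50 (standard error 0.046) on the log2 scale with edgeR adjusted p = 1.50e-08 and no overlap.

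The other splicing lists held called falls as well as rises. Their counts are read against the 21.2% of all genes that rose and the 19.8% that fell. Of 56 proteins of the tri-snRNP and the catalytic complexes 36 rose and 5 fell (median 0.19), with Isy1 at 0.52, Prpf31 at 0.44 and Ppih at 0.43. The fall with the largest size was Syf2 at -0.41. Of 63 SR proteins, hnRNPs and splicing regulators, 32 rose and 9 fell (median 0.11). Srsf2, an SR protein, was at 0.48 and Hnrnpab at 0.52. Mbnl1, a regulator of alternative exons, had 61.3, 57 and 65.1 CPM in the HT-DNA libraries, against 92.7, 91.3 and 92.5 CPM in the mock libraries. Its log2 fold change was -0.60 (standard error 0.058), with edgeR adjusted p = 4.19e-08. Among the other falls of this list, named after their values were seen, were the kinases of SR proteins Srpk2 at -0.48, Clk1 at -0.45 and Clk4 at -0.20, and Mbnl2 at -0.22.

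The remaining steps of RNA handling differed among themselves. Their counts are read against the same shares of all genes, 21.2% higher and 19.8% lower. Capping, cleavage and polyadenylation had 18 of 43 genes higher and 3 lower (median 0.10), with the cleavage factors Cstf3 at 0.52 and Cstf1 at 0.48 and the Integrator subunit Ints2 at 0.47. The exon junction complex and mRNA export had 16 of 32 higher and 1 lower (median 0.16), led by Eif4a3, the core helicase of the junction complex, at 0.54, Magohb at 0.52 and Thoc3 at 0.46. Transfer RNA processing and modification had 41 of 69 higher and 4 lower (median 0.22). Elac2, which cuts the 3′ trailer of tRNA precursors, had 99.4, 101 and 99.7 CPM in the HT-DNA libraries, against 56, 54.8 and 59.9 CPM in the mock libraries. Its groups were far apart relative to their spread, at 0.81 (standard error 0.046) with edgeR adjusted p = 1.72e-11. Trmt61a, a methyltransferase subunit, was at 0.82 and Pop1, a protein of RNase P, at 0.76.

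Messenger RNA decay had shares near those of all genes. Of 44 genes tested 7 rose, 9 fell and 28 were not called (15.9% and 20.5%, beside 21.2% and 19.8% of all genes), with a median of 0.07. Without HT-DNA replicate 3, 3 rose, and without mock replicate 2 or mock replicate 3, 4 rose. The 3 members named by size all fell, and each is known to bring deadenylases to transcripts. Btg1 had 75.3, 71.1 and 70.7 CPM in the HT-DNA libraries, against 106, 117 and 122 CPM in the mock libraries, with no overlap (log2 fold change -0.67, standard error 0.063, adjusted p = 4.30e-08 by edgeR). Zfp36l1, which binds AU-rich elements, was at -0.57 and Tob1 at -0.46. Zinc finger genes with a Zfp symbol, many of which encode DNA-binding proteins, had 330 members tested, with 25 higher (7.58%) and 65 lower (19.7%), with a median of -0.09.

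Falls outnumbered rises among lysosomal genes, in soluble enzymes, membrane proteins and the proton pump. Of 176 tested, 95 (54.0%) fell, beside 19.8% of all genes, 17 rose and 64 were not called, at a median of -0.19 against -0.01 for all genes. Their summed CPM was 90.1%, 88.4% and 87.5% of the mock mean in the HT-DNA libraries, against 97.6%, 98.3% and 104% in the mock libraries. No HT-DNA sum reached a mock sum. The number that fell was 85 to 91 when 1 library was left out, lowest without mock replicate 3, and 79 without both libraries numbered 3, which is under 50% of the 176.

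Of 43 glycosidases, sulfatases, lipases and nucleases 27 fell and 2 rose (median -0.27). Gla, the alpha-galactosidase, had 17.6, 17 and 19.3 CPM in the HT-DNA libraries, against 33.5, 36.1 and 39.1 CPM in the mock libraries. The HT-DNA libraries all lay under the mock libraries, a log2 fold change of -1.02 (standard error 0.077) with edgeR adjusted p = 1.12e-09. Dnase2a, the acid nuclease that degrades DNA in lysosomes, had 23.6, 24.9 and 26.9 CPM in the HT-DNA libraries, against 44.3, 46.8 and 49.8 CPM in the mock libraries. Its groups did not overlap either, at -0.90 (standard error 0.066) with edgeR adjusted p = 5.94e-10. Hyal1, a hyaluronidase, ran against the list at 0.60, with 99.1 to 115 CPM in HT-DNA and 63.2 to 77.9 CPM in mock libraries. Among 16 lysosomal proteases 8 fell and 0 rose by edgeR's test (median -0.27), and by unadjusted p under 0.05 or by DESeq2 none rose. Dpp7 was at -0.67, Tpp1 at -0.53, Scpep1 at -0.39 and Ctsd, cathepsin D, at -0.30.

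Of 49 activators and membrane proteins, 30 fell and 5 rose (median -0.25). Mcoln1, a calcium channel of the lysosome, had 10.4, 8.96 and 8.79 CPM in the HT-DNA libraries, against 17.1, 16.9 and 16.1 CPM in the mock libraries. Pip4p1, a phosphoinositide phosphatase of lysosomes, had 40.5, 37.5 and 34.3 CPM in the HT-DNA libraries, against 65.4, 68 and 68.5 CPM in the mock libraries. In both, all HT-DNA libraries were lower than all mock libraries, with log2 fold changes of -0.83 (standard error 0.096) and -0.84 (standard error 0.067) and edgeR adjusted p of 4.43e-07 and 2.04e-09. Ctns, the cystine exporter, was at -0.79 and Lamp1, a main protein of the lysosomal membrane, at -0.25. Abcb9, a peptide transporter of lysosomes singled out after its values were seen, was the largest rise of all lysosome lists at 1.24, with 4.33, 5.11 and 4 CPM in HT-DNA libraries, against 2.13, 1.65 and 1.93 CPM in mock libraries. Of 19 subunits of the proton pump, 10 fell and 2 rose (median -0.13), led by Atp6v0a1 at -0.50, then Atp6v1f at -0.38 and Atp6v0e2 at -0.36. Without both libraries numbered 3, 6 pump genes fell and the call on Atp6v0e2 was lost (-0.22, edgeR adjusted p = 0.0721).

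The sorting machinery and the regulators had medians nearer to that of all genes. Of the sorting genes 37.9% fell and 17.2% rose, and of the regulators 45% and 15%, beside 19.8% and 21.2% of all genes. Of 29 sorting genes 11 fell and 5 rose (median -0.08), with the tethering adaptor Plekhm1 at -0.48, Gnptg, which helps to mark enzymes with mannose 6-phosphate, at -0.29, and M6pr, a receptor for that mark, at 0.33. Among 20 MiT factors and regulators of their pathway, 9 fell and 3 rose (median -0.09). Tfeb had 15.8, 15.1 and 12.8 CPM in the HT-DNA libraries, against 13, 12.9 and 14 CPM in the mock libraries, so that its groups overlapped, and its log2 fold change of 0.14 (standard error 0.088) did not pass (edgeR adjusted p = 0.236). Tfe3 had 58.3, 56.7 and 54.8 CPM in the HT-DNA libraries, against 63, 62.4 and 63.1 CPM in the mock libraries. Its groups did not overlap, but the change was -0.15 (standard error 0.047) and the call (edgeR adjusted p = 0.013) was lost without HT-DNA replicate 3, at an adjusted p of 0.0547. Without both libraries numbered 3 the calls changed places, with Tfeb at 0.26 (edgeR adjusted p = 0.0341) and Tfe3 at -0.12 (edgeR adjusted p = 0.0665). Mitf was at -0.65, Rragd, a Rag GTPase that recruits these factors to lysosomes, at -0.63 and the growth restraint Tsc1 at -0.47.

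The promoter windows of the falling genes Gla, Pip4p1 and Mcoln1 are shown because they hold TCACGTGA, the extended E-box known from lysosomal promoters, in capitals. They are the 250 bases before the start in RefSeq's GRCm38.p6 sequence, read on the gene's strand, at chrX:134601006-134601255 (minus strand), chr14:50930850-50931099 (minus strand) and chr8:3500269-3500518 (plus strand). In Gla the motif begins 228 and 195 bases before the start, in Pip4p1 55 and in Mcoln1 46.
Gla: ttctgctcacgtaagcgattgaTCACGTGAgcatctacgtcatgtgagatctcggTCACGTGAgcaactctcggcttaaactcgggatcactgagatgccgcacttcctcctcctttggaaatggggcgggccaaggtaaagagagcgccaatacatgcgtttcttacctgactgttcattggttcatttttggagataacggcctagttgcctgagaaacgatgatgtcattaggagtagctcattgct
Pip4p1: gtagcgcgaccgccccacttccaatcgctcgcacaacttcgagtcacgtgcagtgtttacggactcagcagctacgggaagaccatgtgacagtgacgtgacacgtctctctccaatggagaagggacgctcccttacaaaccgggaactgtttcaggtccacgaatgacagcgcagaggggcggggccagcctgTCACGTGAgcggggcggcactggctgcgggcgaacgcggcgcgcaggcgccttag
Mcoln1: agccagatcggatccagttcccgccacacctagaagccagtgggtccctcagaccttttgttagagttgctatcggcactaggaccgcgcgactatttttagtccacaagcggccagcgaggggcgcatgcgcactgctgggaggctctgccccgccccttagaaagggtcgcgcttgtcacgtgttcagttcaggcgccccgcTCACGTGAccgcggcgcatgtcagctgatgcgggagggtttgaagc

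Shares of windows with each motif were counted over 300 bases, from 250 before to 50 after each start, on both strands. TCACGTGA contains CACGTG, so a window with the longer motif counts for both. The interferon response element was in 62.1% of 29 windows of interferon-list genes that rose 2-fold or more, in 32.9% of 73 windows of interferon-list genes that were not higher, and in 3.12% of the 12773 windows of all genes tested. Of 91 windows of genes that rose 2-fold or more outside the interferon and NF-kB lists, 1 (1.10%) held it, that of Pde1b, a cyclic nucleotide phosphodiesterase named after its value was seen, at 1.24. The 91 windows cover 76 of the 137 genes of that set, and 54 of the 137 reached the filter level in every mock library. CACGTG was in 16.9% of 148 windows of ribosome biogenesis genes that rose, in 28.3% of 92 windows of lysosome genes that fell, in 15.6% of 77 windows of the other lysosome genes and in 9.93% of windows of all genes tested. TCACGTGA was in 17.4% of windows of lysosome genes that fell, in 6.49% of the other lysosome genes and in 1.82% of all genes tested. It was in 0 of the 148 windows of ribosome biogenesis genes that rose. In all 32851 windows of the table the 3 motifs were in 3.44%, 7.15% and 0.974%. A match is a stretch of letters, and no binding was measured. The windows cover 10027 of 14683 tested symbols, and a gene can have several.

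**Figure D4:**
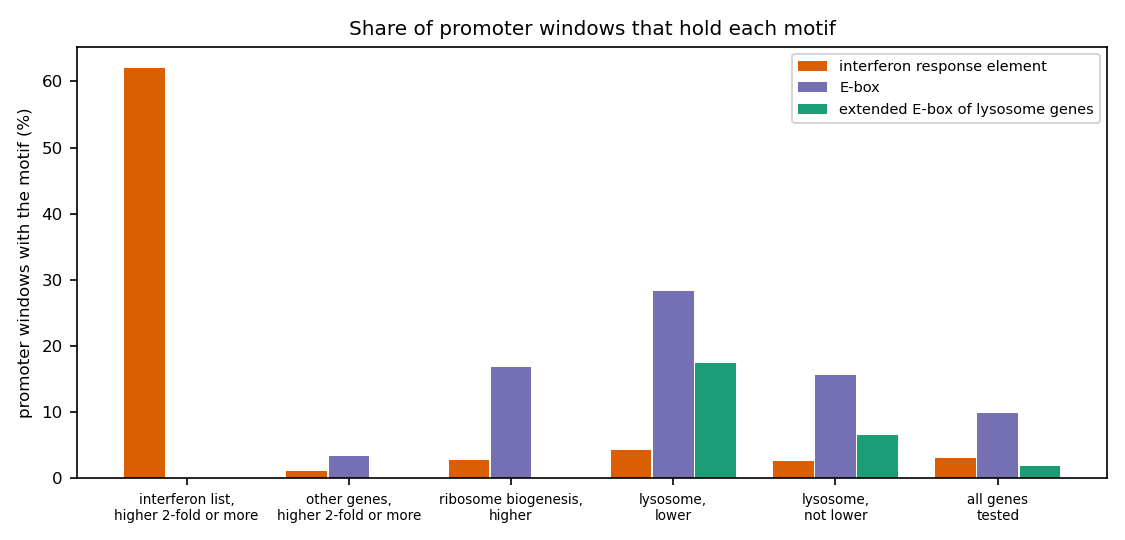
Bars give the percentage of 300-base promoter windows that hold the interferon response element, the E-box or the extended E-box of lysosome genes, for 5 sets of genes and for all genes tested. The interferon element was in 62.1% of windows of interferon-list genes that rose 2-fold or more and the extended E-box in 17.4% of windows of lysosome genes that fell, against 3.12% and 1.82% of all genes tested.

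Transporters moved in both directions and in nearly equal numbers. Of 214 tested genes with a solute carrier symbol, 56 (26.2%) rose, 53 (24.8%) fell and 105 did not pass, beside 21.2% and 19.8% of all genes, and their median was 0.00. With library size alone as scaling, 47 rose and 62 fell. The symbol pattern also took in 4 genes that encode partners or neighbours of carriers. The summed level of the carriers was 102%, 102% and 100.3% of the mock mean in the HT-DNA libraries, against 98.6%, 99.2% and 102% in the mock libraries, so the groups overlapped.

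By cargo, carriers of phosphate, monocarboxylates and organic anions had 11 of 25 members higher (44%) and 3 lower (12%), with a median of 0.27. Their summed level was 129%, 132% and 133% of the mock mean in the HT-DNA libraries, against 98.8%, 99.5% and 102% in the mock libraries. Slc16a3, a lactate exporter, had 4.67, 5.88 and 6.3 CPM in the HT-DNA libraries, against 2.88, 2.95 and 2.67 CPM in the mock libraries (log2 fold change 0.98, standard error 0.15, adjusted p = 1.19e-05 by edgeR). Slc16a1, a lactate carrier of the same family, named after its values were seen, had 228, 231 and 232 CPM in the HT-DNA libraries, against 144, 143 and 146 CPM in the mock libraries, with no overlap and a log2 fold change of 0.67. The list summed to 574 to 592 CPM in HT-DNA and 439 to 452 CPM in mock libraries, so Slc16a1 alone held a large part of that sum and of its rise. Slco2a1, which takes up prostaglandins, was at 0.89, and Slc16a6 at 0.68. Of its 3 falls, 2 were of 2-fold or more. Slco4a1, an organic anion carrier, had 2.74, 1.92 and 2.5 CPM in the HT-DNA libraries, against 9.27, 9.55 and 12.1 CPM in the mock libraries. It was the largest fall of all carriers, at -2.11 (standard error 0.16) with edgeR adjusted p = 1.32e-09, and its relative Slco2b1 was at -1.60.

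Carriers of nucleosides, nucleotide sugars and vitamins had 15 of 37 members higher (40.5%) and 8 lower (21.6%), with a median of 0.11, or 17 and 5 without both libraries numbered 3. Slc19a1, the reduced folate carrier, had 147, 142 and 139 CPM in the HT-DNA libraries, against 76.4, 78.6 and 81.6 CPM in the mock libraries. Slc29a2, an equilibrative nucleoside carrier, had 49.8, 50 and 47.6 CPM in the HT-DNA libraries, against 28.2, 29.2 and 29.1 CPM in the mock libraries. Neither gene's groups overlapped, and the log2 fold changes were 0.86 (standard error 0.044) and 0.77 (standard error 0.057), with edgeR adjusted p of 3.13e-12 and 9.04e-10. Slc44a3, a choline carrier relative, fell by 0.64 on the log2 scale.

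Shares of the other carrier lists are read against the 21.2% of all genes that rose and the 19.8% that fell. Of 26 amino acid carriers, 6 (23.1%) were higher and 11 (42.3%) lower (median -0.07), with 3 higher without mock replicate 2. Slc6a9, a glycine carrier, stood at 49.4, 49.4 and 54.3 CPM in the HT-DNA libraries, far under the mock libraries at 136, 139 and 145 CPM. Slc38a7, a glutamine carrier of the lysosome, was at -0.57 and Slc43a2, a carrier of large neutral amino acids, at 0.61. Of 27 exchangers of protons, bicarbonate, chloride and sodium, 4 (14.8%) were higher and 9 (33.3%) lower (median -0.07), with Slc12a5, a potassium chloride cotransporter, at -0.70 and Slc4a8 at -0.62. Metal ion carriers had 6 of 25 higher and 5 lower (24% and 20%), shares near those of all genes, with the zinc carriers Slc39a10 at 0.95 and Slc30a4 at -0.77. Mitochondrial carriers had 8 of 39 higher and 8 lower, or 12 and 4 without both libraries numbered 3, at shares with all libraries (20.5% each) near those of all genes, from the glutamate carrier Slc25a22 at 0.59 to Slc25a27, a relative of uncoupling proteins, at -1.16. Of 12 genes on the sugar carrier list 3 rose and 3 fell, again near the shares of all genes. Its rises included Slc5a6 at 0.49, which is a vitamin carrier and not a sugar carrier. The inositol carrier Slc5a3 was the list's largest change at 5 CPM or more, with 63.3 to 68.7 CPM in HT-DNA and 138 to 149.5 CPM in mock libraries.

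ABC transporters had 10 of 32 genes higher (31.2%) and 12 lower (37.5%), beside 21.2% and 19.8% of all genes, at a median of -0.03. Abcg1, which exports cholesterol, had 2.43, 2.38 and 3.25 CPM in the HT-DNA libraries, against 6.56, 8.16 and 10.6 CPM in the mock libraries. All HT-DNA libraries were lower (log2 fold change -1.67, standard error 0.18, adjusted p = 1.21e-07 by edgeR). Abcc5, an exporter of cyclic nucleotides, was at -0.90 and Abca7, a lipid transporter, at -0.75. Abcb1a, a drug efflux pump named after its values were seen, rose on few counts, with 74 in the HT-DNA group and 10 in mock.

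**Figure D5:**
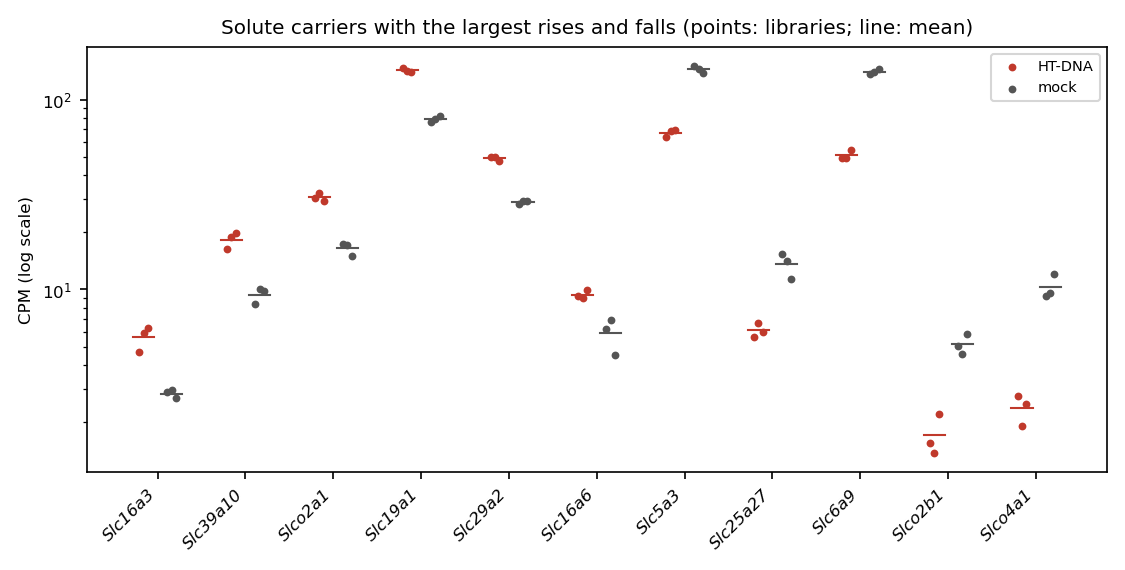
Points are CPM of each library on a log axis for the 6 solute carriers with the largest rises and the 5 with the largest falls at 5 CPM or more, HT-DNA in red left of mock in grey, with lines at the group means. Lack of overlap between the groups was a condition for a carrier to be drawn. Slco4a1 stood at 1.92 to 2.74 CPM in HT-DNA and 9.27 to 12.1 CPM in mock.

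The large falls also lay at lower basal level than genes in general. The 234 genes that fell 2-fold or more had a median of 0.562 RPKM in HT-DNA libraries and 1.42 RPKM in mock libraries, beside 7.8 RPKM in mock for all genes tested. Of the 234, 37.6% were under 1 RPKM in mock, beside 20.2% of all genes tested, and 1 of them was on the interferon list. Lpin1, a phosphatidate phosphatase of lipid synthesis, had 10.8, 11.9 and 11.2 CPM in the HT-DNA libraries, against 41.2, 40.6 and 42.5 CPM in the mock libraries. Mxd4, which competes with MYC for their shared partner MAX, had 10.4, 7.73 and 7.05 CPM in the HT-DNA libraries, against 28.4, 29.7 and 30.8 CPM in the mock libraries. Klhl24, an adaptor of a ubiquitin ligase, had 6.84, 7.61 and 6.8 CPM in the HT-DNA libraries, against 24.3, 26 and 22.7 CPM in the mock libraries. For each of these genes the HT-DNA libraries lay far under all mock libraries, with log2 fold changes of -1.87 (standard error 0.1), -1.81 (standard error 0.11) and -1.78 (standard error 0.11), and edgeR adjusted p of 1.72e-11, 7.67e-11 and 2.77e-11. Ypel3, known from growth arrest, was at -1.71, Fbxl20, a ubiquitin ligase subunit, at -1.85, Tcim at -2.07 and Mturn at -2.71.

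Some of the named falls are uncertain. Pagr1a had 0.266, 0.577 and 0.150 CPM in HT-DNA libraries, against 11.4, 4.95 and 1.16 CPM in mock libraries. Its mock libraries spread widely, and the call (log2 fold change -4.05, SE 1.2, edgeR adjusted p = 0.0279) was lost under 8 alternatives. Mir133a-2 had 3.19, 2.69 and 2.3 CPM in the HT-DNA libraries, against 14.3, 14.3 and 15.3 CPM in the mock libraries, counted on the hairpin's locus in a library of longer RNA, so these reads do not measure the mature miRNA. Eif1ad6 at -1.64 belongs to a family of close copies between which reads can be moved. Falls were called more often among long transcripts: 11.7% of genes in the shortest of 5 equal bins of transcript length and 29.1% in the longest, against 15.3% and 19.4% for rises. The depth behind long transcripts is greater at the same level, and its part in this difference was not tested.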

How the data were processed

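The authors deposited 1 table of estimated counts for 12 libraries, whose values need not be whole. The build, aligner, counter and strand setting: not given in the sources used here. Of the columns of per-sample values, 0 were left unused. Estimated counts were rounded to whole numbers (largest shift 0.5) and tested with edgeR 4.0.16 in R 4.3.3: genes kept by filterByExpr (minimum count 10, minimum total 15), TMM scaling, and the quasi-likelihood test on a model of all 4 groups with 8 residual degrees of freedom. The common biological coefficient of variation was 0.0534. P-values were adjusted by Benjamini-Hochberg over all 14694 genes, at 0.05. DESeq2 1.42.0 was an alternative, with others in filter, scaling, samples and replicates. RPKM is CPM divided by the deposited transcript length. The SE was derived from the quasi-likelihood F value and the log2 fold change, and is not the standard error of the model's coefficient. Because total counts per library set the scale, a few abundant genes can shift all levels, and estimated counts can move reads between near copies.

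Genes were named by rule: the 12 largest rises outside the interferon and NF-kB lists and the 12 largest falls among genes called whose groups did not overlap and whose higher group averaged at least 5 CPM, with a gene symbol, the 3 largest changes of each list, the 6 largest rises and falls of solute carriers, and a few fixed genes. A few items that the rule names are not reported here. Members and lists were chosen with earlier results of these data known. The lists, 39 in all, were written by hand from gene roles. Whether replicate numbers pair the libraries was not settled. Deviations of same-numbered libraries correlated at -0.106, -0.0429 and -0.151, and those of other pairs at -0.0546 to 0.144. Deviations were taken from means of 3 libraries, so these values cannot decide it. Chi-square per degree of freedom between replicates of the HT-DNA or the mock group was 2.15 to 7.56, above sampling noise, so no library was a copy of another. On simulated counts for this comparison, 200 of 14694 genes were changed, and each gene had the spread that the fitted trend gives. The test found 77.1% of genes changed 1.5-fold and 85.3% of those changed 2-fold, and called 0.0138% of unchanged genes. In the data far more genes were called and genes vary around the trend, so these are not the error rates of the real comparison. Promoter sequences are RefSeq's for GRCm38.p6, matched by symbol. Printed windows are those of the members with the largest change whose 250 bases before the start hold the motif.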

Additional observations from a re-analysis of the deposited data

How the results depend on the processing

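With 1 CPM in 3 libraries as the filter, 113 genes rose 2-fold or more, beside 171, since fewer low genes were tested. With library size without Def8 as scaling, a choice made after seeing the data, 115 RNA processing genes rose, beside 178. The other 149 values of the 10 summary results under alternatives stayed within 1.5 times the main value or, for the share of 2-fold rises under 1 RPKM, near it. Leaving out 1 library at a time, 2643 to 3056 genes were higher and 2484 to 2750 lower, 153 to 173 rose and 216 to 244 fell 2-fold or more, 151 to 155 ribosome biogenesis and 140 to 164 RNA processing genes rose, 85 to 91 lysosome genes fell, 48 to 59 solute carriers rose and 48 to 52 fell, and 69.8% to 75.8% of 2-fold rises were under 1 RPKM. Leaving out both libraries numbered 3, also chosen after seeing the data, gave 79 lysosome genes lower and 47 cytosolic ribosomal proteins higher, beside 95 and 8. Without mock replicate 1, 9 splicing genes fell, beside 14, with 2 in the tri-snRNP list, beside 5, and 1 tRNA processing gene fell, beside 4. Sorting genes that rose numbered 3 without HT-DNA replicate 3, beside 5, and MiT genes that rose 5 without both libraries numbered 3, beside 3. With the replicate number as a block, 2974 genes were higher and 2755 lower. Whether the numbers pair the libraries was not settled. DESeq2 called 2978 higher and 2638 lower. Of 138 named genes, 3 lost their call under some alternative (Pagr1a, Tfe3 and Atp6v0e2) and none changed sign under the 15 run. Genes under 1 RPKM had a median SE of 0.349 or more, so at that depth small changes were not detectable there.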
